A study of Mus musculus with 7 samples.

Results

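The genes described here are Dram1 and 9 other genes of the p53 pathway, 10 of the 30879 genes in the table, followed across the cell types of the mouse thyroid and across thyroid follicular cell organoids (TFCOs). The members are Dram1, Cdkn1a, Mdm2, Ccng1, Trp53inp1, Phlda3, Zmat3, Bax, Eda2r and Trp53, and all 10 are rows of the table. They were selected with the difference between TFCOs and tissue in view, in which Dram1 had stood out, so that difference is given as values without a test. Single cells were sorted from thyroid tissue of wild-type C57BL/6 mice (2 samples), from early passage TFCOs (2 samples) and from late passage TFCOs (3 samples), and the study's methods state that the mice were female. TFCOs grow from wild-type thyroid in basement membrane extract and consist of thyroid follicular cells (TFCs), the hormone-producing epithelium of the gland. Early and late TFCOs shared a medium with EGF, FGF10, R-spondin, the TGFβ inhibitor A83-01 and forskolin, an activator of cAMP signaling, and the labels record no other treatment. Tissue was digested with collagenase before TrypLE, whereas TFCOs were freed from the matrix and taken to single cells in TrypLE alone, so culture and dissociation cannot be told apart between tissue and TFCOs.

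The protein p53, encoded by Trp53 in the mouse, is a transcription factor that is held low by the ubiquitin ligase Mdm2 and accumulates when DNA is damaged or growth signals are abnormal. It then switches on genes that stop the cell cycle, repair DNA, trigger cell death or alter metabolism, and it also switches on Mdm2, which closes a feedback loop. Dram1 encodes a lysosomal membrane protein that links p53 to autophagy, the process by which cells digest their own contents.

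In the mouse genome (GRCm38, GENCODE M21), all members were annotated as protein-coding genes. Dram1 lies on chromosome 10 on the minus strand at chr10:88322804-88379080, and Mdm2 lies on the same strand of that chromosome at chr10:117688875-117710758. Cdkn1a is at chr17:29090976-29100727, Ccng1 at chr11:40748552-40755311, Trp53 at chr11:69580359-69591873, Trp53inp1 at chr4:11156431-11174379 and Phlda3 at chr1:135766119-135769136. Zmat3 is at chr3:32334792-32366014, Bax at chr7:45461697-45466898 and Eda2r at chrX:97333840-97377216. Of all 50-base stretches of the members' transcripts, Dram1, Ccng1, Trp53inp1, Phlda3 and Eda2r shared none with another gene. Bax shared 8.51% of its stretches with Gm45808, a gene on the same strand that covers 819 of its exonic bases, and Trp53 shared 3.64% with the pseudogene Trp53-ps. The levels of Bax and Trp53 are therefore less certain, although Trp53-ps had only 1 UMI in all TFC-like cells. Cdkn1a overlaps an unnamed transcript on the opposite strand along 273 exonic bases.

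The sequences just upstream of the transcription start are shown for Dram1, which stood apart from the other members in the data below, and for Cdkn1a and Mdm2, the members best known as p53 targets. They are the 250 bases before the start in RefSeq (GRCm38.p6), for Dram1 chr10:88357076-88357325 on the minus strand, which lies in an intron of a longer GENCODE transcript, for Cdkn1a chr17:29090729-29090978 on the plus strand and for Mdm2 chr10:117710759-117711008 on the minus strand. Capitals mark matches to the consensus decamer of p53, which reads the same on both strands.
Dram1: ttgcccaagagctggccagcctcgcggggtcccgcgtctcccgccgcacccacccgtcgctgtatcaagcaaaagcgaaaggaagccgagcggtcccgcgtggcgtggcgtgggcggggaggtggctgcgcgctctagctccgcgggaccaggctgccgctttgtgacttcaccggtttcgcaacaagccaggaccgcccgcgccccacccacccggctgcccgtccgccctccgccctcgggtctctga
Cdkn1a: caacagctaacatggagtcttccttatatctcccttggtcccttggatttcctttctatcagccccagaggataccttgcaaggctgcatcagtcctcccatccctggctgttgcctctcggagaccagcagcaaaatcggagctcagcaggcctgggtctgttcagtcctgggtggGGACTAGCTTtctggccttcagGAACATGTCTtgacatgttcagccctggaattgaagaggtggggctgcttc
Mdm2: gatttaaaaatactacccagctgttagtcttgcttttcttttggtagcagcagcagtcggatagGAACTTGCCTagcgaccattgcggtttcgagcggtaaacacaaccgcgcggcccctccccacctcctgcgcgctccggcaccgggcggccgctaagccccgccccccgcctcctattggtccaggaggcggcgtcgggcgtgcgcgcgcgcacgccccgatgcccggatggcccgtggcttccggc
The Dram1 window held no match, and the start of the longer GENCODE transcript of Dram1 was not looked at. The Cdkn1a window held 2 matches, which end 63 and 41 bases before the start, and the Mdm2 window held 1 match that ends 176 bases before it. Among the 32851 promoters of the RefSeq table, 7.13% held at least 1 match in a window of this length, and 0.0639% held a pair of matches separated by at most 13 bases, as Cdkn1a did. Ccng1, Bax and Trp53 had 1 match each, 175, 191 and 65 bases before their starts. Phlda3, Eda2r and a second start of Cdkn1a had none, and Trp53inp1 and Zmat3 were not looked at here. A match describes these letters only, and binding was not measured.

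Levels are unique molecular identifiers (UMIs) per 10000 UMIs of a cell, averaged over the cells of a sample. Each UMI counts 1 molecule at its 3′ end, so levels of different genes are set side by side without a correction for length. Cells of at least 1000 UMIs were used, 2035 of 2590, and the samples held 1360770 to 4690869 UMIs in these cells. Of them, 47 and 46 tissue cells and 210 to 338 cells per TFCO sample fell in clusters named TFC-like from TFC markers. All 16 TFC markers were detected in the TFC-like cells of every sample, with a summed level of 1639 and 1235 in tissue and of 111 to 207 in TFCOs. In tissue, each member rests on few molecules, between 6 UMIs for Phlda3 and 47 for Cdkn1a over both samples. Many of them came from 2 very deep cells of tissue sample 2 (268847 and 151110 UMIs), which held 27 of its 29 Dram1 UMIs, but the cells weigh equally in the means.

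Dram1 was the most abundant member in TFC-like cells of every TFCO sample and was nearly absent from those of the tissue. Its level was 0.0433 and 0.210 UMIs per 10000 in tissue samples 1 and 2. It was 8.67, 6.72 and 9.52 in late samples 1, 2 and 3, and 7.05 and 8.10 in early samples 1 and 2. The lowest TFCO sample was thus far above both tissue samples, and the TFCO mean of 8.01 ± 1.15 (SD, n = 5) was 63.3 times the tissue mean of 0.127 ± 0.118 (SD, n = 2). The size of this ratio is imprecise. It was 185 against tissue sample 1 alone, 38.2 against tissue sample 2 alone and 27.2 with UMIs summed over the cells of a sample, since 27 of the 29 Dram1 UMIs of tissue sample 2 lay in its 2 deepest cells. Without these cells that sample had a level of 0.195. Tissue sample 1 had a single Dram1 UMI in 124860, a summed level whose exact Poisson interval at 95% runs from 0.00203 to 0.446 and covers counting error only. In TFCOs, Dram1 stood at rank 61 to 100 by level among the 24953 to 27933 genes detected in a sample, and it made up 54.8% to 67.9% of the summed level of the 10 members.

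**Figure D1:**
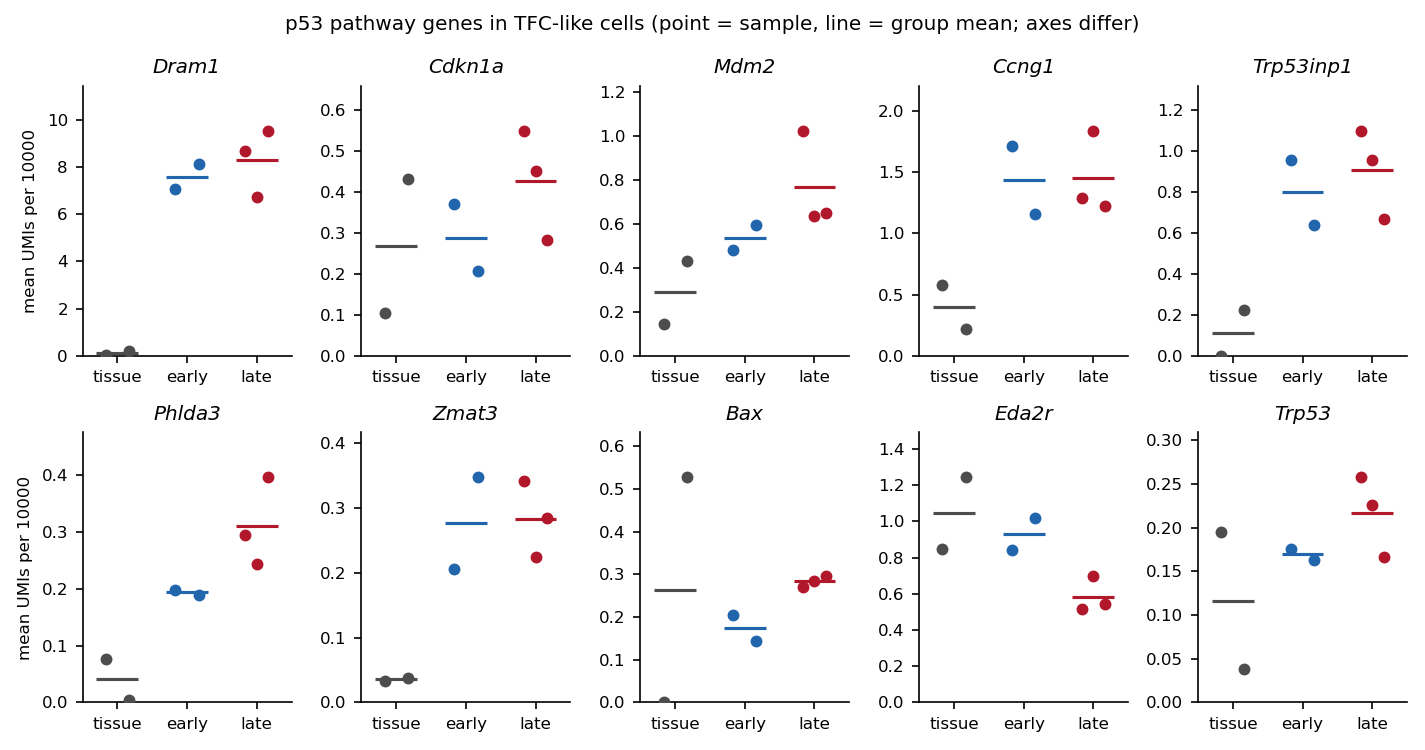
Mean level of each member in the TFC-like cells of 2 tissue, 2 early passage and 3 late passage samples, in UMIs per 10000 (vertical axes start at 0 and differ between panels, points are samples and lines are group means). Dram1 lies between 6.72 and 9.52 in the 5 TFCO samples and at or below 0.210 in tissue, whereas the tissue points of Cdkn1a, Bax, Eda2r and Trp53 overlap the TFCO points.

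The members that act in cell cycle arrest and in the feedback on p53 were at lower levels. Ccng1 encodes cyclin G1, a p53 target that takes part in the control of Mdm2. Its level was 0.581 and 0.217 in tissue, 1.29, 1.83 and 1.22 in late samples 1 to 3, and 1.71 and 1.16 in early samples 1 and 2. All TFCO samples lay above both tissue samples, at 3.61 times the tissue mean (2.48 and 6.63 times each tissue sample). Mdm2 was at 0.147 and 0.431 in tissue, at 1.02, 0.636 and 0.651 in late samples and at 0.480 and 0.596 in early samples. The groups did not overlap for Mdm2 either, but the closest tissue and TFCO samples differed little. Cdkn1a encodes p21, the inhibitor of cyclin-dependent kinases through which p53 halts the cell cycle. It was at 0.104 and 0.432 in tissue, 0.549, 0.452 and 0.284 in late samples and 0.371 and 0.206 in early samples, and these ranges overlapped.

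Among the members tied to cell death or stress, Trp53inp1, which encodes a p53-induced protein of autophagy and cell death, had no UMI in the 47 TFC-like cells of tissue sample 1 and a level of 0.223 in tissue sample 2. In TFCOs it was at 1.10, 0.954 and 0.667 in late samples and at 0.956 and 0.641 in early samples, all above tissue. Phlda3, an inhibitor of Akt signaling, was at 0.0768 and 0.00467 in tissue, 0.294, 0.243 and 0.395 in late samples and 0.198 and 0.189 in early samples. Zmat3, an RNA-binding zinc finger protein, was at 0.0335 and 0.0382 in tissue, 0.342, 0.225 and 0.285 in late samples and 0.207 and 0.347 in early samples. The tissue values of Trp53inp1, Phlda3 and Zmat3 rest on 9, 6 and 10 UMIs, and their ratios of 7.75, 6.48 and 7.85 are accordingly imprecise, at 10.5, 3.18 and 2.26 with UMIs summed over cells.

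Bax, a pore-forming protein that triggers mitochondrial cell death, had no UMI in tissue sample 1 and a level of 0.527 in tissue sample 2. The TFCO samples, at 0.143 to 0.297, lay between them. Eda2r encodes a receptor of the tumor necrosis factor family, and it was the member with the highest tissue level, 0.846 and 1.24, against 0.515 to 1.02 in TFCOs. Its level correlated at 0.217 between TFCO cells of different samples that share a well barcode. That is above the limit of 0.05 used to leave genes out of the clustering, so the levels of Eda2r are less certain. Trp53 itself was at 0.195 and 0.0378 in tissue and at 0.163 to 0.257 in TFCOs, so its mRNA overlapped between the groups. In all, 6 of the 10 members were above both tissue samples in all 5 TFCO samples. The same was true of 45.5% of the 21668 genes with UMIs in every TFCO sample, and since the members were selected on this contrast nothing is read from their count.

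Within TFCOs the levels fell in the order Dram1, Ccng1, Trp53inp1, Eda2r, Mdm2, Cdkn1a, Zmat3, Phlda3, Bax and Trp53. Dram1 was 3.66 to 7.79 times the level of Ccng1 in the same sample, and neither their ranges nor those of Ccng1 and Trp53inp1 overlapped. From Trp53inp1 (0.863 ± 0.200, SD, n = 5) to Trp53 (0.198 ± 0.0418, SD, n = 5), every neighbor in this order overlapped with the next over the 5 samples. The highest TFCO sample exceeded the lowest by 1.42 times for Dram1, the smallest such spread among the members, and by 2.66 times for Cdkn1a, the largest.

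Tissue cell types other than TFCs gave no Dram1 level near that of the TFCOs. In 278 endothelial-like cells Dram1 was at 0.389 and 0.142 in tissue samples 1 and 2, from 33 UMIs. In 55 mural-like cells it was at 0 and 0.150, in 57 immune-like cells at 0.0687 and 0.0221, and in the 22 stromal-like cells of both samples at 0.0570. A count of 0 in the mural-like cells of tissue sample 1 allows a level of up to 0.280, taking 3 counts as the limit of a count of 0 and covering counting error only. Cdkn1a reached 1.19 in the immune-like cells of tissue sample 1 but 0.134 in those of sample 2. Phlda3 was at 0.522 and 0.206 in mural-like cells and at 1.16 in stromal-like cells, with no UMI in immune-like cells, although all 12 stromal-like UMIs came from sample 1. Trp53inp1 was at 0.255 and 0.816 in mural-like cells, where Ccng1 had 1 UMI. Eda2r was at 0.752 or more in every class, with the uncertainty from the well barcode given above. The classes are clusters of these cells, so these values are a description.

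**Figure D2:**
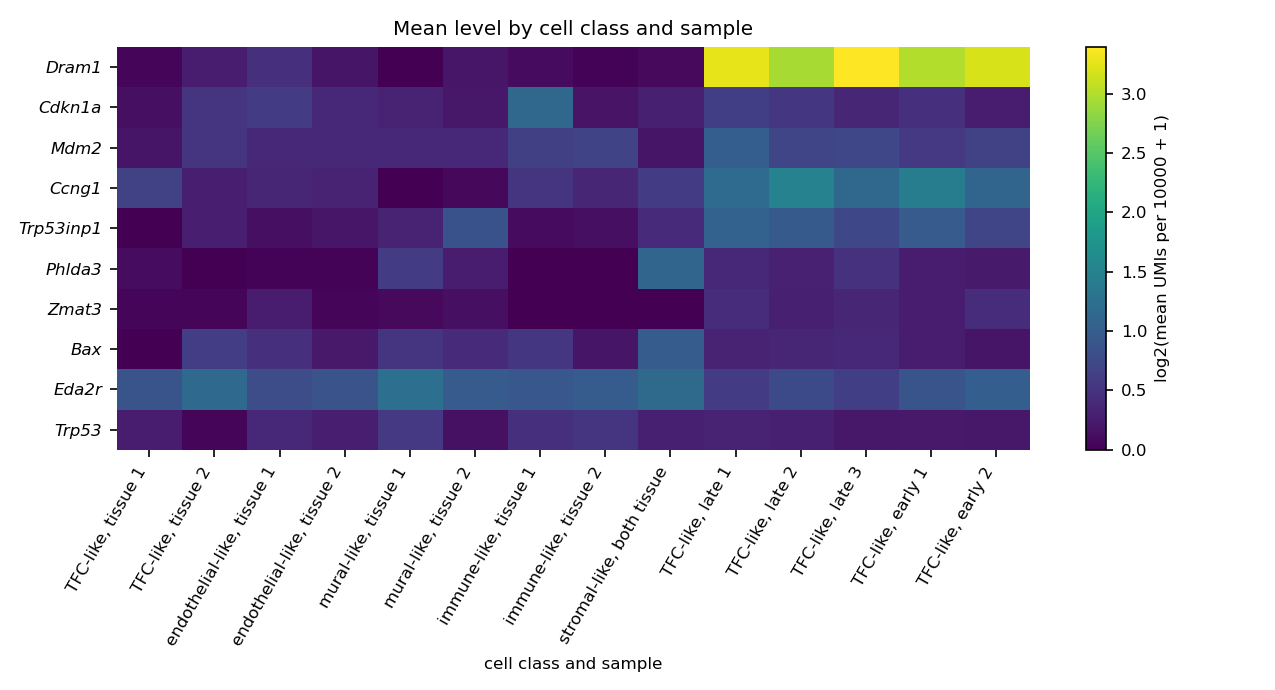
Mean level of each member in each cell class and sample, as log2 of UMIs per 10000 plus 1 (rows are genes, columns are classes of each sample). The only bright row is Dram1 in the 5 columns of TFCO samples, and Eda2r is of similar shade in all columns.

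Dram1 was found in most TFCO cells. At least 1 UMI was present in 87.3%, 97.0% and 93.4% of TFC-like cells of late samples 1 to 3, and in 95.7% and 84.8% of those of early samples 1 and 2. In tissue it was present in 1 of 47 and 4 of 46 TFC-like cells, 2.13% (exact binomial interval at 95%, 0.0539 to 11.3) and 8.70% (2.42 to 20.8). The median depth of these cells was 2288 and 2222 UMIs in tissue and 5090 to 12718.5 UMIs in TFCOs. After each cell was thinned to 1000 UMIs, Dram1 was present in 42.0% to 58.1% of TFCO cells and in none of the tissue TFC-like cells, which allows up to 6.38% and 6.52% of them to hold a UMI at that depth, taking 3 cells as the limit of a count of 0. At that depth Ccng1 was present in 9.13% to 16.2% of TFCO cells and none of the other 8 members exceeded 9.45% there. The share of cells with a UMI thus fell for Dram1 as for the others when depth was equalized, but Dram1 kept a gap to the rest in every sample.

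The Dram1 count varied between cells of a sample by more than a Poisson count of the same mean. With cells thinned to 3000 UMIs, which left out 4 to 95 shallower cells per sample, the mean was 2.07 to 2.88 Dram1 UMIs and the variance was 1.55 to 3.16 times the mean. No Dram1 UMI was left in 15.4% to 25.2% of cells, where a Poisson count gives 5.60% to 12.6%. Cells with more Dram1 did not carry consistently more of the other members. When the cells of a sample were split at the median by Dram1, the group with more Dram1 held 1.86 and the group with less held 1.41 UMIs of the other 9 members together in late sample 1, the widest gap. In late sample 3 these means were 1.27 and 1.46, in the opposite order. Over the 45 pairs of members, the mean correlation across cells had a median of 0.0310 and a maximum of 0.221, for Cdkn1a with Ccng1, and 8 pairs were above 0 in all 5 samples. These are correlations of sparse counts that share cells and libraries, and they are given as a description.

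**Figure D3:**
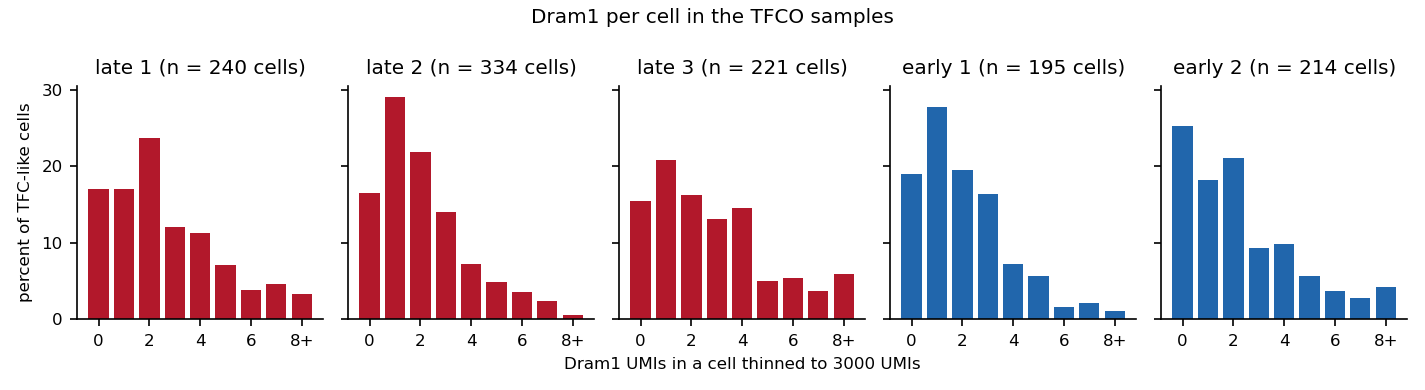
Share of TFC-like cells by their number of Dram1 UMIs after thinning to 3000 UMIs, for 3 late (red) and 2 early (blue) TFCO samples (horizontal axis, Dram1 UMIs, with 8 or more in the last bar). Cells without Dram1 make up 15.4% to 25.2%, and the highest cell, of early sample 2, held 20 UMIs.

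Whether the members change with time in culture was asked by comparing late with early passage. No member passed the threshold of 0.05 with limma, a linear model fitted across all genes, on log2 of the mean level plus 1. Of the 10 members, 5 had a high enough level for this fit (Dram1, Mdm2, Ccng1, Trp53inp1 and Eda2r), in which 1 of 4346 genes was called (0.0230%) and 877 had an unadjusted p under 0.05. The other 5 were read from a fit of every gene with a UMI, in which 1 of 30747 was called (0.00325%) and 3654 had an unadjusted p under 0.05. Dram1 differed by a log2 of 0.11 ± 0.20 (SE, limma adjusted p = 0.784), and its late samples, at 6.72 to 9.52, enclosed the early ones. Ccng1 differed by 0.01 ± 0.15 and Trp53inp1 by 0.08 ± 0.13. The intervals of these differences are wide, so equal levels are not shown.

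Without overlap between the 3 late and 2 early samples, 3 members were higher in late TFCOs, Mdm2, Phlda3 and Bax, and 1 was higher in early TFCOs, Eda2r. Among the 21668 genes with UMIs in every TFCO sample, 10.9% were higher in every late sample and 25.0% in every early sample. These counts depend on single samples. Without early sample 1, which leaves early sample 2 alone, 7 members were higher in late TFCOs (25.9% of all genes) and 2 in early TFCOs (43.2%). Without 1 of the other samples, 3 to 5 were higher in late TFCOs (13.9% to 20.4% of all genes) and 1 in early TFCOs (30.4% to 37.3%). Mdm2 averaged 0.770 ± 0.219 (SD, n = 3) at late passage and 0.538 ± 0.0824 (SD, n = 2) at early passage, a log2 difference of 0.20 ± 0.12 (SE, limma adjusted p = 0.360). Phlda3 and Bax were 1.61 and 1.63 times as high in late TFCOs, with limma adjusted p = 0.469 and 0.670. Eda2r had the smallest p of the members, with means of 0.584 ± 0.0974 (SD, n = 3) at late and 0.928 ± 0.125 (SD, n = 2) at early passage and a log2 difference of -0.28 ± 0.12 (SE, limma unadjusted p = 0.0315, adjusted p = 0.211). Trp53 differed by 0.06 ± 0.07 on the log2 scale, with a late mean 1.28 times the early mean.

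Late sample 2 and early sample 1 were the deepest TFCO samples and held the most cycling cells. Without both, early TFCOs were represented by sample 2 alone, which the fit assumes to vary like the samples of the other groups. Only sizes of differences are therefore given for the members in this fit. The Eda2r difference was then -0.40 and that of Dram1 was 0.15. Of the members, 8 were then higher in late TFCOs without overlap (33.0% of all genes) and 2 in early TFCOs (46.8%). Eda2r was also the member whose level followed the barcode of the well. TFCO cells of different samples with the same barcode correlated at 0.217 for Eda2r, 0.0326 for Dram1 and at most 0.00886 for the others, against a median of 0.0146 over 19498 genes. In cells whose barcodes occurred in all 5 TFCO samples, 94 per sample, the Eda2r difference was -0.28 (limma adjusted p = 0.388). The part of the barcode in the late minus early difference of Eda2r was not tested.

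**Figure D4:**
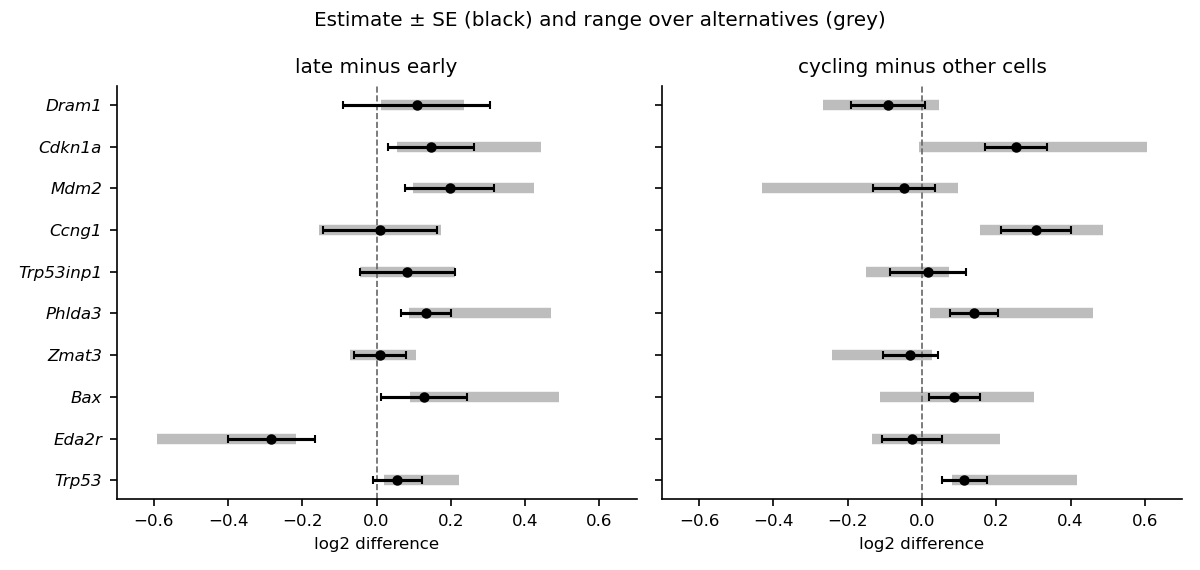
Log2 differences of the members, late minus early (left) and cycling minus other cells (right), as limma estimates with SE (black) and the range over all alternatives of the processing (grey). Late minus early estimates run from -0.28 for Eda2r to 0.20 for Mdm2, and cycling minus other estimates from -0.09 for Dram1 to 0.31 for Ccng1.

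The last question was whether the targets of a brake on the cell cycle differ between cycling and other organoid cells. A TFC-like cell was taken as cycling if it held at least 2 UMIs of Mki67 and Top2a, genes of dividing cells. There were 19, 89 and 29 cycling cells in late samples 1 to 3 and 56 and 16 in early samples 1 and 2, 209 of 1405 cells, and 211 more cells held exactly 1 such UMI. Cycling cells were deeper in every sample, with a median of 7999 to 18178 UMIs against 4778 to 12201 in the others. The rule counts UMIs without a correction for depth, so deeper cells meet it more easily. Shallow dividing cells can thus fall among the others. The part of the rule in this gap was not tested. With the sample as a term, limma called 223 of 14181 genes higher in cycling cells (1.57%) and 33 lower (0.233%), and 1829 had an unadjusted p under 0.05. None of the 10 members was called.

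On the log2 scale with a pseudocount of 1, Ccng1 had the largest estimate of the members, whereas as a ratio of the mean levels Cdkn1a did (1.85 against 1.41). Ccng1 was at 2.28, 1.98 and 1.47 in the cycling cells of late samples 1 to 3 and at 1.22, 1.78 and 1.19 in the other cells. In early samples 1 and 2 it was at 2.19 and 1.73 in cycling cells and at 1.53 and 1.13 in the others. Cycling cells were higher in 5 of 5 samples, with a log2 difference of 0.31 ± 0.09 (SE, limma unadjusted p = 0.00545, adjusted p = 0.146). Cdkn1a was at 1.05, 0.725 and 0.473 in cycling cells of late samples and at 0.517, 0.354 and 0.258 in their other cells. In early sample 1 it was at 0.611 and 0.284, and in early sample 2 at 0.151 and 0.209, so that 4 of 5 samples were higher in cycling cells. This amounted to 0.25 ± 0.08 on the log2 scale (SE, limma adjusted p = 0.183), and Cdkn1a passed with UMIs summed over cells (0.26, adjusted p = 0.0496) and without early sample 2 (0.33, adjusted p = 0.0269). In cells with barcodes found in all 5 TFCO samples, Cdkn1a had a difference of -0.01. In cells thinned to 2000 UMIs its difference was 0.19 (limma adjusted p = 0.744). The thinned cells kept the cycling label from their counts before thinning, so this setting does not take depth out of the rule. The cycling means of Cdkn1a rest on few UMIs, from 8 in early sample 2 to 79 in late sample 2.

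Phlda3 was higher in cycling cells of 5 of 5 samples (log2 difference 0.14 ± 0.06, SE, limma adjusted p = 0.377), and so was Trp53 (0.11 ± 0.06, SE, limma adjusted p = 0.450). The pseudocount of 1 shrinks both differences, and as ratios of the mean levels they were 1.53 and 1.54. Together with Ccng1, 3 of the 10 members were higher in all 5 samples and none was lower in all 5, against 7.41% and 6.28% of all genes tested. Dram1 was at 8.12, 5.80 and 8.19 in cycling cells of late samples 1 to 3 against 8.71, 7.05 and 9.70 in the others, and at 7.40 and 8.19 against 6.93 and 8.10 in early samples 1 and 2. It was thus lower in cycling cells of all 3 late samples and slightly higher in both early samples, with a pooled log2 difference of -0.09 ± 0.10 (SE, limma adjusted p = 0.746). The difference between late and early in this respect was -0.23 ± 0.10 (SE, limma unadjusted p = 0.0464, adjusted p = 0.775), and 0 of 14181 genes were called (0%), with 899 at an unadjusted p under 0.05. Mdm2, Trp53inp1, Zmat3, Bax and Eda2r differed in both directions among the samples.

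**Figure D5:**
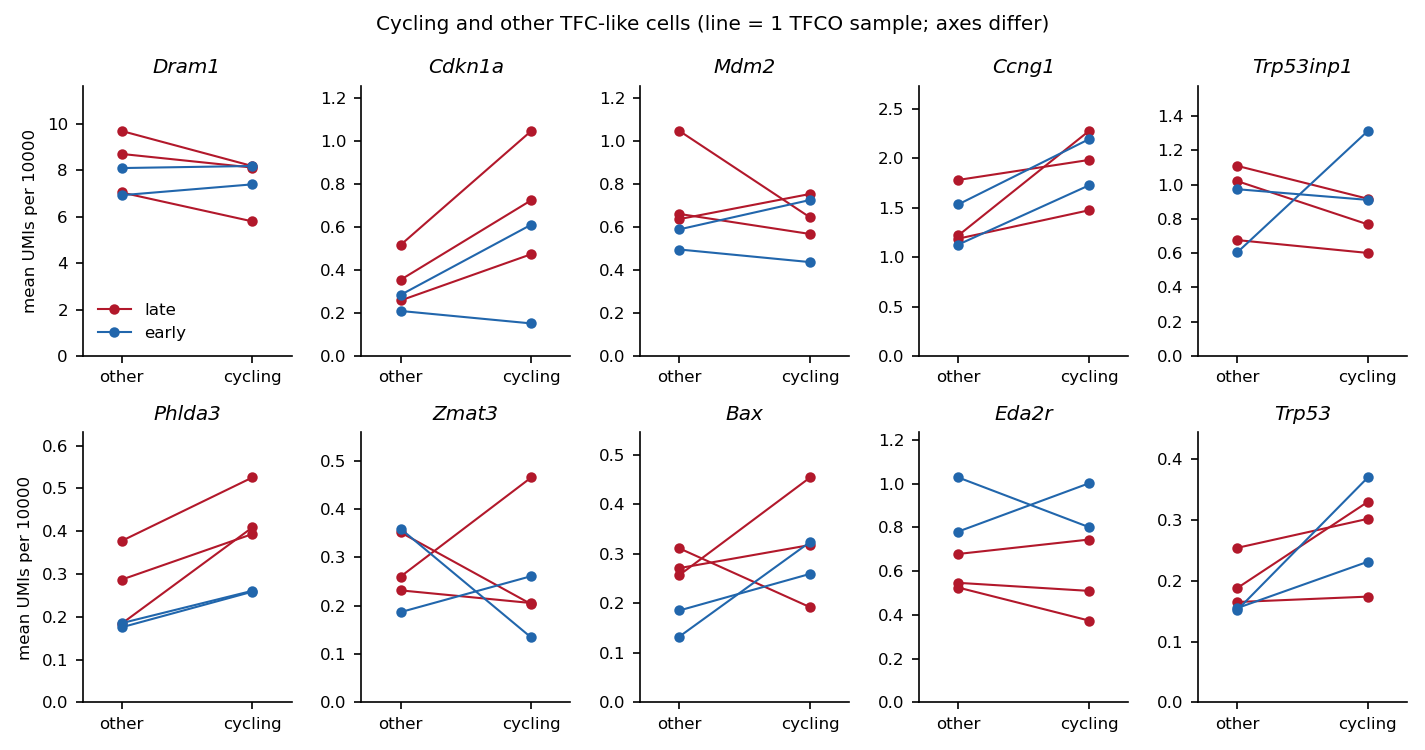
Mean level of each member in other and in cycling TFC-like cells, in UMIs per 10000 (each line joins both values of 1 TFCO sample, late in red and early in blue, vertical axes start at 0 and differ between panels). All 5 lines rise for Ccng1, Phlda3 and Trp53, and the Dram1 lines fall in the 3 late samples.

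To place the members in their pathway, 7 lists of other p53 regulators, p53 targets and autophagy genes, 61 genes in all, were counted. Only 20 of them had a high enough level to be tested between TFCOs and tissue. There 5 passed as higher in TFCOs and none as lower, where 20.9% of all 4346 genes tested were called higher and 6.21% lower. The minimum level of 0.5 applied to the mean of the 3 groups. Among the 5, Mdm4 and Dram2, whose tissue means were 0.161 and 0.302, were thus tested only through their TFCO levels. Nothing is read from their calls or from the count of 5. The same held for Trp53bp1, Btg2 and Atg10, which did not pass. In the fit of every gene with a UMI none of the 5 genes called above passed (limma adjusted p = 0.0553 to 0.111). The 2 genes of the lists that did, Ulk1 (higher in TFCOs) and Trp53i11 (lower), were below the minimum. Of the p53 regulators 5 were tested, and Mdm4 passed, a partner of Mdm2 that restrains p53. It was at 0.121 and 0.201 in tissue and at 0.617 to 0.903 in TFCOs, given as values only. Of the other targets, both tested genes passed, Ephx1, an enzyme that detoxifies epoxides, at 2.75 times the tissue level (limma adjusted p = 0.0233), and Sulf2, a sulfatase that trims heparan sulfate, at 2.40 times (limma adjusted p = 0.0255).

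Of the autophagy and lysosome genes, 2 of 7 tested passed. One was Dram2, the relative of Dram1, at 0.188 and 0.417 in tissue and 0.735 to 0.981 in TFCOs. Its call is not read, since it was tested only through its TFCO level. The other was Lamp2, a lysosomal membrane protein, at 2.04 and 1.05 in tissue and 3.00 to 4.93 in TFCOs (log2 difference 0.85 ± 0.27, SE, limma adjusted p = 0.0390). These 5 genes passed in 11 to 16 of the 17 or 18 other settings each, and 4 pathway genes passed without late sample 2 and early sample 1. None of the tested genes for arrest (1 tested), apoptosis (1), DNA repair and nucleotides (1) or metabolism and redox (3) passed. The list medians include genes tested only through their TFCO levels, Mdm4 and Trp53bp1 among the regulators and Dram2 and Atg10 among the autophagy genes. They are given as a description, and nothing is read from them. The median log2 difference was 0.35 for the p53 regulators, 0.82 for the 2 other targets and -0.03 for the autophagy genes, beside 0.22 for all genes tested. That general shift depends on scaling. With each sample centred on its median gene it was 0.03, none of the 5 genes passed (adjusted p = 0.0763 to 0.150), and the calls over all genes turned from 908 higher and 270 lower to 349 higher and 413 lower.

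Between late and early TFCOs, 0 of the 20 tested genes of these lists were called by limma (3 at an unadjusted p under 0.05, 15.0%, beside 20.2% of all genes tested), and between cycling and other cells 0 of 50 were called (7 at an unadjusted p under 0.05, 14.0%, beside 12.9% of all genes tested). A separate list of 15 genes induced by cell dissociation had a summed level of 4.05 and 6.52 in tissue TFC-like cells and of 5.44 to 11.1 in TFCOs. Its 3 tested genes encode transcription factors and did not move together. Egr1 was at 2.03 to 3.40 in TFCOs against 0.0335 and 0.672 in tissue. Its tissue mean of 0.352 was also below the minimum, so nothing is read from its call as higher in TFCOs. Fos and Jund had log2 differences of -0.15 and -0.29 and did not pass (limma adjusted p = 0.768 and 0.295), and the median of the 3 genes was -0.15. The part of dissociation in the members' levels was not tested.

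The genes whose pattern was most like that of Dram1 were sought over 14 means, those of the tissue classes and of the TFC-like cells of the TFCO samples. Among 4805 genes, the highest Pearson correlations on the log2 scale were those of Serinc5 (0.981), Fzd6 (0.979), Acpp (0.978), 2310061I04Rik (0.975) and Appl2 (0.975). Serinc5 was at 2.51 to 3.32 in TFCO samples and at most 0.452 in any tissue class, and Appl2 was at 3.04 to 5.61 and at most 0.934. Of the other members, only Ccng1 and Eda2r reached the minimum mean of 0.5 over these means, and the rest were not ranked. Ccng1 came 156th (0.900), whereas Eda2r had a correlation of -0.62. All of these means share the contrast between tissue and TFCOs, which alone gives high values, so the order is a description.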

How the data were processed

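Mouse thyroid cells and TFCOs were profiled by SORT-seq, a plate method with CEL-seq2 chemistry. The table deposited by the authors holds 30879 genes and 2590 cells, and its values are the natural log of 1 plus UMIs per 10000 UMIs of the cell. The submitters' notes name Trim Galore 0.4.3, STAR 2.5.3a, Seurat and GRCm38. The log was undone, and dividing by each cell's smallest value gave whole UMIs for 100% of values within 0.01. Cells under 1000 UMIs were left out.

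Tissue and TFCO cells were clustered apart (scanpy 1.11.5, Leiden at resolution 1), without genes whose correlation between cells with the same well barcode exceeded 0.05, and named from marker lists. A class needed at least 3 detected markers. Cells with 2 or more markers of another type that outscored TFC markers were set aside, 15 in tissue and 1 in TFCOs. That minimum of 2 was introduced once the first clusters were known. No doublet caller was run. Unnamed cells, 58 in tissue and 51 in TFCOs, were left out. The TFCO ones formed a cluster with 11 TFC markers detected. It was left unnamed since its median depth relative to the sample median, 0.258, was under the limit of 0.333 and its 10 top genes held no TFC marker. Late sample 2 held 22 of these cells and early sample 1 held 25. In the tissue ones, the top genes held no marker of the best class but 4 of another. Well barcodes come from a common set of 384, of which 63 occurred in all 7 samples, so a shared barcode does not mean a shared cell.

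Levels of TFC-like cells were averaged per sample, log2-transformed with a pseudocount of 1, which shrinks differences of low genes, and fitted with limma 3.58.1 (R 4.3.3) using a trended prior variance (all 7 samples, 1 weight for tissue, 0.464, and 1 for TFCO samples, 1.36). Genes were tested if the mean of the 3 group means was 0.5 or more, or 0.1 or more in at least 2 means for cycling cells. P values were adjusted by Benjamini-Hochberg over all genes tested, and the code was tested on simulated data, where the late against early fit missed most changes of the smaller simulated size and also called genes that had not been set to change. In cycling cells the sample was a term, because both means come from 1 sample. Groups follow the passage stage in the labels. The series text gives an equal number of replicates per group, but 3 samples are labelled late. P-values measure the spread between samples, each taken as independent. Whether TFCO samples share an organoid line or an animal did not enter the fits. Samples that share one would not be independent, and early and late samples were not paired.

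Members and lists were chosen with earlier results of these data known. All 10 members are named, and of other lists the genes past the threshold, up to 10 per comparison. Genes like Dram1 are the first 5 by correlation among genes at a mean of 0.5 or more. Promoters and starts come from RefSeq (GRCm38.p6) and gene spans from GENCODE M21. Alternatives changed the pseudocount, filter, cell minimum, summing, scaling, weights, cycling rule, clustering and samples.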

Additional observations from a re-analysis of the deposited data

Results flagged for a closer look

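The difference between cycling and other cells in Dram1 had opposite signs in late and early TFCOs, lower in cycling cells of all 3 late samples and higher in both early samples, from -0.24 in late sample 2 to 0.08 in early sample 1 on the log2 scale. The late minus early value was -0.23, and limma on all genes gave an adjusted p of 0.775 for it.

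For Trp53inp1, early sample 2 stood apart from the other 4 TFCO samples in the same difference. It was 0.53 there and between -0.19 and -0.05 in the others, a gap of 0.797 of the whole range, past the limit of Dixon's test for 5 samples. The cycling mean of that sample rests on 16 cells. Of 20 sets of 5 values examined in this way, this was the only 1 past the limit, and chance gives about 1 in 20.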

How the results depend on the processing

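No member passed the threshold between late and early TFCOs under any of the 19 alternatives. The number of genes called there was 1, and 1 to 353 when 1 sample was left out (353 without early sample 1, 2 without late sample 2). Leaving out 1 early or tissue sample leaves a single one in its group, and its spread is then taken from the remaining groups. It was 553 without late sample 2 and early sample 1 together, and 1 other p53 pathway gene, Apaf1, was then called against 0 otherwise. Small late minus early differences changed sign. Ccng1 was -0.13 with barcodes in all TFCO samples (chosen after seeing the data), -0.039 with UMIs summed over cells, and -0.16 to 0.17 when 1 sample was left out. Trp53inp1 was -0.044 to 0.21 when 1 sample was left out. Zmat3 was -0.071 to 0.089 when 1 sample was left out and -0.037 without late sample 2 and early sample 1.

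Between cycling and other cells 256 genes were called, 105 to 333 when 1 sample was left out (105 without late sample 1, and 132, 135 and 132 without late sample 2, late sample 3 and early sample 1). The count was 35 with barcodes in all TFCO samples, 134 with cycling at 1 UMI, 147 in cells thinned to 2000 UMIs, 453 with summed UMIs and 49 in the fit of every gene with a UMI. The members called were 0, or 1 (Cdkn1a) with summed UMIs and without early sample 2. The other pathway genes called were 0, or 1 with cycling by 8 other markers (Psrc1), with summed UMIs (Chek1) and without early sample 2 (Epha2). The passage by cycling count was 0, and 1 without early sample 1. Reversed member differences were, for Dram1, 0.047 with cycling at 1 UMI of each gene. With barcodes in all TFCO samples, Cdkn1a was -0.0093, Bax -0.088 and Eda2r 0.21. With cycling at 1 UMI, Mdm2 was 0.097, Trp53inp1 -0.11, Zmat3 0.0073 and Eda2r 0.080, and with 1 UMI of each gene Mdm2 was 0.044 and Trp53inp1 -0.047. With the 8 other markers Trp53inp1 was -0.15, Zmat3 0.013 and Bax -0.022. In thinned cells Mdm2 was 0.053 and Bax -0.11. With summed UMIs Trp53inp1 was -0.12 and Eda2r 0.063. When 1 sample was left out Mdm2 was -0.089 to 0.019, Trp53inp1 -0.11 to 0.070, Zmat3 -0.093 to 0.027 and Eda2r -0.075 to 0.0097. Apart from the fewer genes, cells or samples that some alternatives hold, the cause was not tested.

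The 5 other pathway genes called between TFCOs and tissue became 3 with cells of at least 2000 UMIs and with every deposited cell, 2 in the fit of every gene with a UMI, and 0 with centring on the median gene and with summed UMIs. They were 4 to 10 when 1 sample was left out, the most without tissue sample 2. The labels number tissue samples apart from TFCO samples, which run on from late to early, and tie none of them to 1 animal. Pairing tissue with late samples by number is thus an assumption. Deviations from the group means of same-numbered tissue and late samples correlated at -0.049 and 0.019 over 4346 genes. A replicate block on these numbers was fitted to late and tissue samples 1 and 2 alone, without early samples or weights. It compares late TFCOs with tissue, so its 5 called genes do not repeat the main comparison. Without the sample term the cycling count was 130 (no replicate block) with 0 members. Levels in tissue classes moved by more than the spread of 2 samples in 43 of 200 alternatives, and 61 of 70 shares of cells with a UMI left their intervals after thinning to 1000 UMIs. Depth limits the tissue values, which rest on 6 to 47 UMIs per member.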
